A study of Mus musculus with 18 samples.

Results

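The 8 genes described here encode the calcineurin and CaM kinase II subunits of mouse brain. They were chosen by gene symbol among 23038 symbols of a cortical gene count table, and comprise *Ppp3ca*, *Ppp3cb* and *Ppp3cc* for the catalytic calcineurin A subunits, *Ppp3r1* for the regulatory calcineurin B subunit, and *Camk2a*, *Camk2b*, *Camk2d* and *Camk2g* for the 4 CaM kinase II subunits. The same symbols accounted for 16 of 1991 alternative splicing events in a second table. RNA-seq was done on E18.5 cortex of CD1 mice in 4 groups of 3. These were *Nova2-/-* mice, their wild-type littermates (WT1 to WT3), *Nova1-/-* mice, and wild-type littermates of those (WT4 to WT6). All mice came from one strain and stage, and neither knockout carried a mutation of the other *Nova* gene by its label. The *Nova2* allele is a germline null in which a cassette with Cre took the place of the first exon. For splicing, *Nova1-/-* midbrain and hindbrain was also compared with wild-type littermates. NOVA1 and NOVA2 are neuronal RNA-binding proteins that control alternative splicing.

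Calcium entering a neuron binds calmodulin, and calcium-loaded calmodulin switches on a phosphatase and a kinase that act on many of the same processes. Calcineurin is a heterodimer whose A subunit removes phosphate from proteins such as the NFAT transcription factors and dynamin, and whose B subunit is a calcium sensor required for activity. CaM kinase II is a holoenzyme of many subunits that phosphorylates itself and so stays active after calcium has fallen, and it is known for its role in synaptic strengthening. *Camk2a* and *Camk2b* are the isoforms characteristic of neurons, whereas *Camk2d* and *Camk2g* are expressed in many tissues. Subunits of the kinase differ chiefly in a variable linker that is built from alternative exons.

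The splicing events of these genes lay in *Ppp3cb*, *Camk2b* and *Camk2g*. NOVA proteins bind the tetramer YCAY, where Y is C or T. Below are exons of *Ppp3cb* and *Camk2g* with 100 nt of intron on each side, 5′ to 3′ along the transcript, from the mm9 genome. All lie on the minus strand. Capitals mark each YCAY on the transcribed strand, and the exon begins at base 101 of each line. They are shown because they are the exons that the event names of these genes give and because the position of the motif is the feature by which NOVA targets are usually read.
*Ppp3cb*, 27 nt exon at chr14:21330696-21330722: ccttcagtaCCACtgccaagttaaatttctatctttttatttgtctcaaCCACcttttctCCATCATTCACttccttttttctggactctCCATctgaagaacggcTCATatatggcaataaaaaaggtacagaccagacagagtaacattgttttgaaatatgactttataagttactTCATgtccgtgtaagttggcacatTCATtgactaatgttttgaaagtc
*Camk2g*, 33 nt exon at chr14:21567041-21567073: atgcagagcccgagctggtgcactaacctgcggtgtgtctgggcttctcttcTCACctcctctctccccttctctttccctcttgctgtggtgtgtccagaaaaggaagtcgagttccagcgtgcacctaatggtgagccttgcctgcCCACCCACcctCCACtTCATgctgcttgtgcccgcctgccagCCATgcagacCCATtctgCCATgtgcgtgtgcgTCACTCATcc
*Camk2g*, 69 nt exon at chr14:21565014-21565082: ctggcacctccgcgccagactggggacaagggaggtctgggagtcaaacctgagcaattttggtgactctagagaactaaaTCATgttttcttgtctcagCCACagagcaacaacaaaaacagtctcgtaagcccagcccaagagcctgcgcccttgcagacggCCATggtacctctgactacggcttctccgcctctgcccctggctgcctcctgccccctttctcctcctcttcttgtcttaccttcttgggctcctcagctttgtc

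The 27 nt exon of *Ppp3cb* carried 6 YCAY tetramers in the 100 nt upstream, 1 in the exon and 2 downstream. The 33 nt exon of *Camk2g* had the opposite arrangement, with 1 tetramer upstream, 0 in the exon and 9 downstream. The 69 nt exon of *Camk2g* had 1 upstream, 2 inside and 0 downstream. Among 177725 internal exons of the GENCODE vM1 annotation, searched on the transcribed strand with overlapping matches counted, the median was 2 upstream and 1 downstream, and 81.4% held at least 1 upstream. At least 6 upstream tetramers were found for 1.20% of these exons and at least 9 downstream for 0.0546%. Events entered the deposited table partly because a NOVA cross-linking cluster with YCAY lay on the exon or its flanking introns, so these counts describe the members and carry no test.

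All 3 exons were multiples of 3 in length, held 0 in-frame stop codons and were bounded by AG and GT. Of 379 cassette exons whose coordinates the event names of the whole table give, 266 (70.2%) were multiples of 3, and 35 (9.23%) were 27 nt or shorter. The 27 nt exon of *Ppp3cb* was absent from GENCODE vM1, and its position was read from the event name between annotated flanking exons. Both *Camk2g* exons were annotated. *Ppp3cb* and *Camk2g* lie on the same strand of chromosome 14 with 188.3 kb between them.

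**Figure D1:**
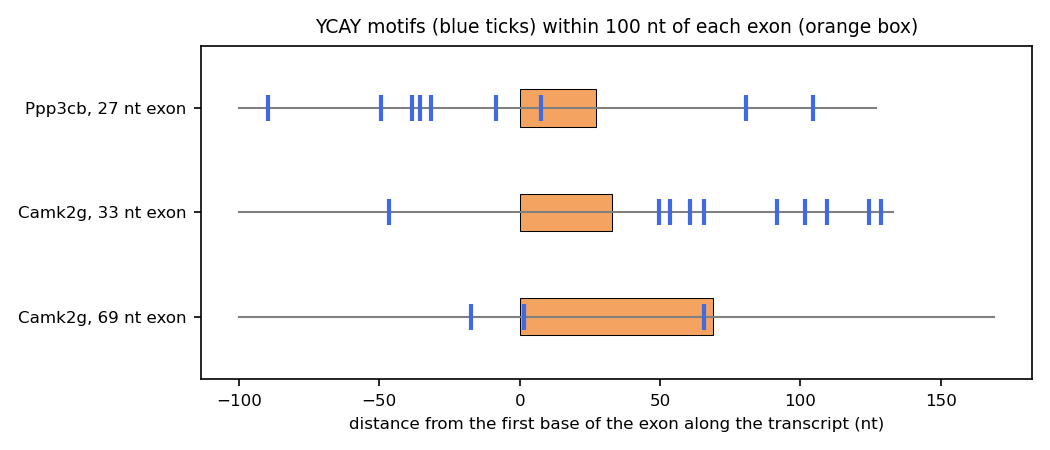
Position of YCAY tetramers (blue ticks) around the 3 exons (orange boxes), with distance in nt from the first exon base on the x axis. The *Ppp3cb* exon has 6 ticks upstream and 2 downstream, and the 33 nt *Camk2g* exon has 1 upstream and 9 downstream.

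Exon inclusion was compared with *Δ*I, the fraction of transcripts that include the exon in wild-type minus that in the knockout, so that a value below 0 means more inclusion in the knockout. An event was listed when *Δ*I in *Nova2-/-* cortex was at least 0.1 in size with an FDR below 0.1. The *Nova2-/-* values of the members were thus a condition of their listing and are given as a description. The smallest size among them was 0.122, against a limit of 0.1. One *Δ*I and 1 FDR per event and comparison were deposited, without read counts or values per mouse, so the depth and the spread between mice are unknown. *Ppp3ca*, *Ppp3cc*, *Ppp3r1*, *Camk2a* and *Camk2d* had 0 listed events.

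*Ppp3cb*, the most abundant of the 3 catalytic calcineurin genes in this tissue, had 2 listed events over one span. The 27 nt exon had a *Δ*I of -0.449 in *Nova2-/-* cortex (deposited FDR 2.85e-72), which means more inclusion of the exon without NOVA2. It ranked 234 by size among the 1991 events. The second event over the same span, whose name gives no exon coordinates, had a *Δ*I of -0.385 (FDR 4.58e-57). In *Nova1-/-* cortex the *Δ*I of the 27 nt exon was -0.00581 (FDR 1), and in *Nova1-/-* midbrain and hindbrain it was 0.0019 (FDR 0.232). Whether *Δ*I differed between the knockouts cannot be tested on these values.

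*Camk2b*, whose subunit binds actin and targets the kinase to the cytoskeleton, had 1 cassette event. Its *Δ*I was -0.125 in *Nova2-/-* cortex (FDR 0.000633), close to the limit for listing. In *Nova1-/-* cortex the value had the same sign but was smaller, at -0.057 (FDR 0.452). In *Nova1-/-* midbrain and hindbrain it was -0.156 (FDR 1.61e-07). This was the one event of the 16 past both thresholds there, against 5.98% of the 1991 events of the table. The value had the same sign in all 3 comparisons, and the one in *Nova1-/-* cortex passed neither threshold.

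*Camk2g* had 13 events that shared exons within one stretch of 11.1 kb, so they are not 13 independent changes. The 33 nt exon in it is the counterpart of the CaM kinase II exon that carries a nuclear localization signal. Its cassette event had a *Δ*I of 0.380 (FDR 3.01e-22), which means less inclusion without NOVA2, the opposite sign to *Ppp3cb* and *Camk2b*. A second event for this exon over a shorter span had a *Δ*I of 0.311 (FDR 5.39e-05), and a further cassette event with no exon in its name had 0.314 (FDR 2.99e-22). The 5 tandem events, in one of which the 33 nt exon and the 69 nt exon are named together, ran from 0.253 to 0.276. The 5 mutually exclusive events ran from 0.122 to 0.240. All 13 values were above 0. For mutually exclusive events the table does not say to which exon of the pair *Δ*I refers, so their direction cannot be read as more or less of a named exon.

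In *Nova1-/-* cortex, 11 of the 13 *Camk2g* events were above 0, within a range of -0.0226 to 0.136. Of these, 2 mutually exclusive events passed both thresholds, with a *Δ*I of 0.111 (FDR 0.0608) and 0.136 (FDR 0.0373). Of all listed events, 0.907% passed in *Nova1-/-* cortex (18 of 1984 with a value), and among mutually exclusive events 0.913% (2 of 219), both of them those of *Camk2g*. The 5 *Camk2g* mutually exclusive events all had an FDR below 0.1, against 5.48% of the 219. As these events share exons and reads, they count as 1 observation. The 3 cassette events of *Camk2g* lay between 0.0135 and 0.0867 in *Nova1-/-* cortex, with a lowest FDR of 0.366. In *Nova1-/-* midbrain and hindbrain, all 13 values were above 0, from 0.0155 to 0.0804, and 0 passed both thresholds. The 5 mutually exclusive events again all had an FDR below 0.1 there (0.0262 to 0.0596), against 14.6% of the 219.

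**Figure D2:**
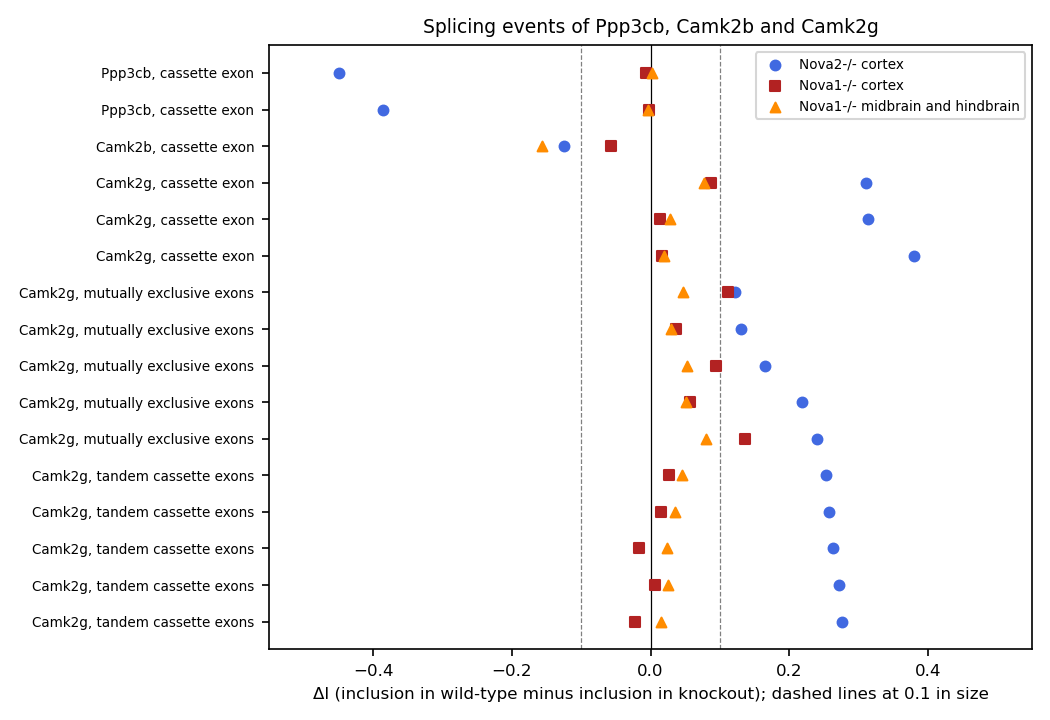
*Δ*I of the 16 events (x axis, inclusion in wild-type minus knockout, with dashed lines at 0.1 in size) for *Nova2-/-* and *Nova1-/-* cortex and for midbrain and hindbrain of *Nova1-/-*, 1 deposited value each with no error bar. *Ppp3cb* and *Camk2b* lie below 0 and *Camk2g* above 0 in *Nova2-/-* cortex, and most *Nova1-/-* values lie between the dashed lines.

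The abundance of the 8 genes was then compared. Library totals ranged from 16518149 to 31361972 counts over the 12 mice, with WT2 the shallowest yet with counts for more genes (21791, against 18397 to 19396). *Nova1* had 3, 1 and 5 counts in the *Nova1-/-* mice, against 1301 to 2011 in their wild-type littermates. *Nova2* had 17.0, 17.9 and 21.6 CPM (counts per 1e+06 counts in genes, with library sizes scaled by TMM) in the *Nova2-/-* mice, against 31.6, 31.5 and 40.8 in their littermates. Counts per gene do not distinguish transcript that lacks the replaced exon. Summed markers of cortical neurons (8 genes) were 3478 to 4167 CPM in WT1 to WT3 and 3351 to 3760 in *Nova2-/-*, which overlap. They were 3654 to 3693 in WT4 to WT6 and 3706 to 3816 in *Nova1-/-*. Summed markers of the meninges (11 genes) were 285.1, 356.1 and 738.9 CPM in WT1 to WT3 but 1180 to 1311 in *Nova2-/-*. They were 1099 to 1404 in WT4 to WT6 and 947 to 1118 in *Nova1-/-*. Of the 11, 3 (*Col1a1*, *Dcn*, *Ogn*) were higher in *Nova2-/-* at an FDR below 0.05, against 1.06% of all genes. Between the wild-type litters, 5 of the 11 (*Col3a1*, *Col1a2*, *Dcn*, *Ogn*, *Ptgds*) were lower in WT1 to WT3, against 3.03% of all genes. Markers of endothelium and mural cells (6 genes) were 184.4 to 217.3 CPM in WT1 to WT3 and 258.9 to 287.7 in *Nova2-/-*. At the same FDR 1 of them (*Kdr*) was higher in *Nova2-/-*. Summed markers of the choroid plexus (3 genes) varied widely within groups. They were 817.4, 1176 and 787.7 CPM in WT1 to WT3 and 1499, 97.09 and 1265 in *Nova2-/-*. In WT4 to WT6 they were 229.4, 981.1 and 897.6, and in *Nova1-/-* 912.7, 107.0 and 856.2. No listed marker of these kinds was at 0 in any group. The part of these tissues in the values below was not tested, and fewer cells of a type and less RNA per cell cannot be told apart in bulk cortex.

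Among catalytic subunits of calcineurin, *Ppp3cb* was at 371.8, 338.1 and 354.4 CPM in WT1 to WT3 and at 354.6, 376.6 and 328.3 in *Nova2-/-*. In the *Nova1* litters it was at 358.3, 358.4 and 382.0 in wild-type and 386.3, 348.5 and 340.5 in *Nova1-/-*. The groups overlapped throughout, and its log2 fold change in *Nova2-/-* was 0.01 (SE 0.07, FDR 0.981), so the gene with the largest *Δ*I among the members had one of the smallest differences in abundance. *Ppp3ca*, the other abundant catalytic gene, was at 292.5, 281.0 and 259.6 CPM in WT1 to WT3 and at 261.0, 262.8 and 240.8 in *Nova2-/-* (log2 fold change -0.11, SE 0.07, FDR 0.405). It was at 254.2, 283.3 and 279.6 in WT4 to WT6 and 292.3, 266.7 and 258.3 in *Nova1-/-*. These ranges overlapped in each litter.

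*Ppp3cc*, the catalytic gene best known from testis, was at 33.5, 30.3 and 27.6 CPM in WT1 to WT3 and 27.4, 29.1 and 25.9 in *Nova2-/-*. In WT4 to WT6 it was at 31.0, 31.3 and 31.6, and in *Nova1-/-* at 32.9, 32.0 and 30.7. Groups overlapped in both litters. *Ppp3r1*, the regulatory subunit, was at 134.8, 130.1 and 134.9 CPM in WT1 to WT3 and at 120.7, 117.7 and 121.4 in *Nova2-/-*. All 3 knockout values lay below all 3 wild-type values (log2 fold change -0.14, SE 0.06), but the difference did not pass edgeR's test after correction over all genes (FDR 0.244). In the *Nova1* litters it was at 153.9, 138.1 and 141.7 in wild-type and at 153.0, 137.9 and 135.0 in *Nova1-/-*, which overlap.

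*Camk2b* was at 355.9, 332.9 and 389.8 CPM in WT1 to WT3 and at 287.7, 316.1 and 326.3 in *Nova2-/-*. The groups did not overlap (log2 fold change -0.20, SE 0.08), but here too the FDR was above 0.05, at 0.229. It was at 329.9, 358.2 and 370.5 in WT4 to WT6 and 397.4, 339.8 and 313.5 in *Nova1-/-*. The *Nova1-/-* mice thus spread to both sides of their littermates. *Camk2g* was at 152.6, 142.1 and 188.2 CPM in WT1 to WT3 and at 153.7, 152.8 and 150.3 in *Nova2-/-*, which overlap (log2 fold change -0.07, SE 0.10, FDR 0.753). It was at 153.6, 146.7 and 159.2 in WT4 to WT6 and 161.2, 155.6 and 159.4 in *Nova1-/-*.

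*Camk2a*, the isoform of mature forebrain excitatory neurons, was at 28.6, 25.6 and 47.0 CPM in WT1 to WT3 and at 30.7, 28.7 and 47.2 in *Nova2-/-*. It was at 43.4, 48.4 and 54.5 in WT4 to WT6 and 63.1, 42.2 and 37.5 in *Nova1-/-*. WT3 and *Nova2-/-* replicate 3 were the highest of their groups. *Camk2d*, the widely expressed isoform, was at 73.4, 64.7 and 98.4 CPM in WT1 to WT3 and 76.7, 56.1 and 88.5 in *Nova2-/-*, with the same mice highest. It was at 88.8, 83.5 and 90.2 in WT4 to WT6 and 96.9, 89.5 and 87.7 in *Nova1-/-*. Over the 12 mice the coefficient of variation was 27.9% for *Camk2a*, above that of 98.2% of 8233 genes with a mean of at least 20 CPM, and 15.5% for *Camk2d*, above 86.7%. The other 6 genes lay between 5.06% (*Ppp3cb*) and 9.43% (*Camk2b*), under the median of 9.51% over those genes.

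**Figure D3:**
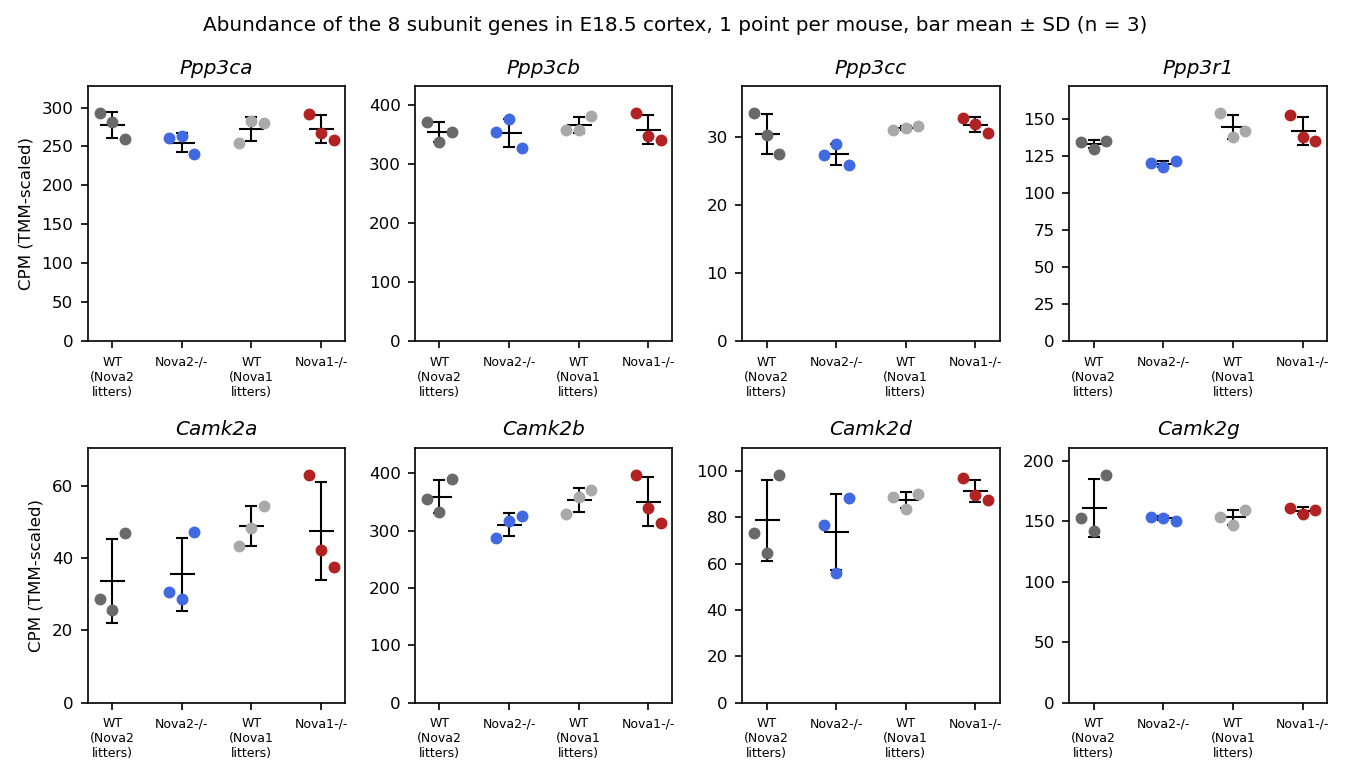
CPM of the 8 genes (y axis, from 0) in each of the 12 cortex mice, 1 point per mouse in the order of replicate number, with mean and SD as bars (n = 3). *Camk2b* and *Ppp3r1* are lower in all 3 *Nova2-/-* mice than in their littermates, and *Camk2a* and *Camk2d* have the highest coefficients of variation over the 12 mice.

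In *Nova2-/-* against littermates, 0 of the 8 genes passed an FDR of 0.05 with edgeR's quasi-likelihood test, where 1.06% of 15691 genes tested did (166). At an unadjusted p below 0.05, 2 of 8 were called, both lower, against 19.2% of all genes in either direction and 9.06% lower. Non-overlapping groups with the knockout lower were found for the same 2 genes, against 14.0% of all genes. The median log2 fold change of the members was -0.10, against 0.01 for all genes. The 95% interval lay within 1.5-fold in either direction for 7 of 8, and for *Camk2a* it ran from 0.699-fold to 1.60-fold. In *Nova1-/-*, 0 of 8 passed the FDR (0.0126% of 15901 genes did) and 0 had an unadjusted p below 0.05 (7.44% of all genes). All 8 log2 fold changes lay between -0.03 and 0.06, with intervals within 1.5-fold. DESeq2 also called 0 members in either knockout.

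The difference between the *Nova2-/-* and *Nova1-/-* changes was tested in a fit of all 12 mice, and 0 of 8 members passed (1.83% of 16210 genes did), nor did any have an unadjusted p below 0.05 (18.2%). For *Camk2b* the difference was -0.20 on the log2 scale (95% interval -0.47 to 0.07). For *Ppp3r1* it was -0.13 (-0.32 to 0.06). A difference of these sizes is within the error of the design.

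The wild-type mice of the separate litters also differed. Between WT1 to WT3 and WT4 to WT6, 0 of 8 members passed the FDR, against 3.03% of 15918 genes, and 1 had an unadjusted p below 0.05, against 21.1%. This was *Camk2a*, which was lower in WT1 to WT3 (log2 fold change -0.53, SE 0.21, FDR 0.189). *Ppp3r1* was at 130.1 to 134.9 CPM in WT1 to WT3 and at 138.1 to 153.9 in WT4 to WT6. The share of all genes with ranges apart between these litters is not given here, so no weight is put on this gap. The log2 fold change of *Ppp3r1* was -0.13 (SE 0.07, FDR 0.323), close in size to that in *Nova2-/-*. Without WT3, *Camk2a* passed at -0.86 (FDR 0.000166), as did *Camk2d* at -0.36 (FDR 0.00607), but 22.3% of all genes passed in that fit, so 2 of 8 is near the background. WT1 and WT2 were also the lowest of the 12 mice in the summed meningeal markers (285.1 and 356.1 CPM), and the part of this in the difference was not tested.

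**Figure D4:**
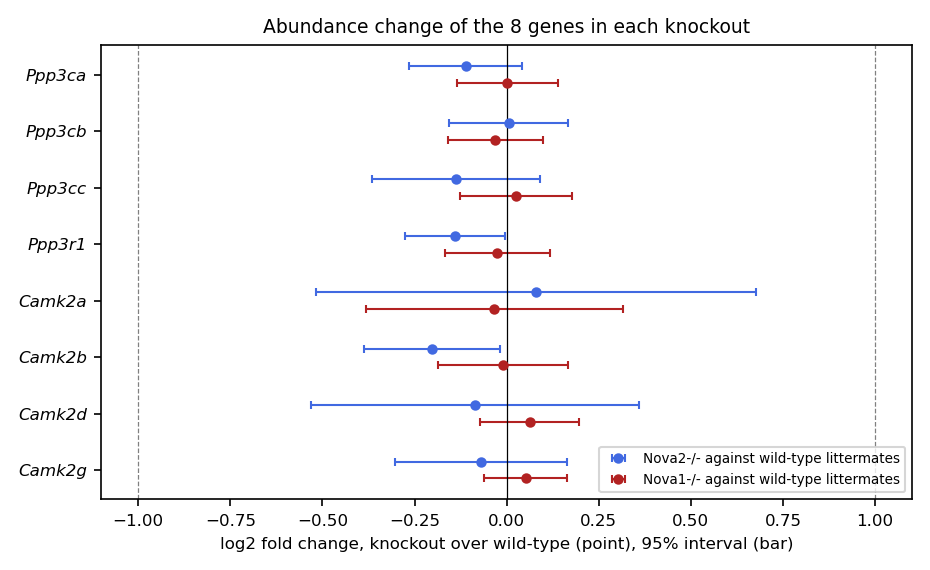
Log2 fold change of each gene (x axis) in *Nova2-/-* (blue) and *Nova1-/-* (red) cortex against wild-type littermates, with the 95% interval of the edgeR fit (n = 3 per group) and dashed lines at a 2-fold change. Every interval lies inside the dashed lines, the intervals of *Camk2b* and *Ppp3r1* in *Nova2-/-* lie just below 0, and that of *Camk2a* is the widest.

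Levels of different genes were compared only as CPM per kb of annotated exon in the 6 wild-type mice. *Ppp3cb* was highest at 59.91 ± 2.51 (SD, n = 6), above the range of every other gene. *Ppp3ca* at 49.89 ± 2.70, *Ppp3r1* at 43.04 ± 2.56, *Camk2b* at 39.03 ± 2.48 and *Camk2g* at 32.55 ± 3.39 followed, and each overlapped the range of the next. *Ppp3cc* at 10.54 ± 0.663 lay apart from both neighbours. *Camk2a* at 5.53 ± 1.55 and *Camk2d* at 5.18 ± 0.763 were lowest and overlapped. The order depended on the length used, above all for *Camk2d*, whose annotated exons sum to 16069 nt but whose longest transcript has 4388 nt. Per kb of the longest transcript, *Camk2b* came next to *Ppp3cb* (88.54 and 94.11, overlapping) and *Camk2d* (18.96) came above *Ppp3cc* (12.39) and *Camk2a* (8.30).

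As a share of its family per kb, *Camk2b* made up 48.1% ± 2.41 of CaM kinase II in WT1 to WT3 and 45.4% ± 1.71 in *Nova2-/-* (SD, n = 3, exact permutation p = 0.3). *Camk2g* was at 40.5% ± 0.787 and 42.2% ± 2.37 (exact permutation p = 0.4), *Camk2a* at 5.41% ± 1.11 and 6.31% ± 1.51, and *Camk2d* at 5.92% ± 0.525 and 6.11% ± 1.21. *Ppp3cb* made up 49.3% ± 1.63 of the catalytic calcineurin genes in WT1 to WT3 and 51.3% ± 0.651 in *Nova2-/-* (exact permutation p = 0.3). *Ppp3ca* was at 42.1% ± 1.29 and 40.5% ± 0.697 (exact permutation p = 0.2), and *Ppp3cc* at 8.67% ± 0.460 and 8.20% ± 0.0957. In *Nova1-/-* the shares moved by at most 1.09 points (*Camk2g*). With 1 mouse left out, this difference ran from -0.303 (without *Nova1-/-* replicate 3) to 2.64 points (without *Nova1-/-* replicate 1). Of the 7 differences in each knockout, 6 kept their sign with any mouse left out in *Nova2-/-* and 4 in *Nova1-/-*. In *Nova2-/-* the difference for *Camk2a* (0.903 points) fell to 0.0429 without replicate 3 of the knockout, that for *Camk2g* (1.69 points) ran from 0.756 to 3.02, and that for *Camk2b* (-2.78 points) from -4.17 without WT3 to -1.92. The smallest p that 3 mice against 3 allow in this two-sided test is 0.1, and over the 14 shares tested the Benjamini-Hochberg adjusted p lay between 0.7 and 0.8.

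The genes around the enzymes were taken from 7 lists of 50 genes, of which 48 were tested. In *Nova2-/-*, 1 of the 48 passed an FDR of 0.05, against 1.06% of all genes, and it fell. The median log2 fold change over the lists was -0.12, against 0.01 for all genes, and 36 of 48 (75.0%) lay below 0, against 48.2%. At an unadjusted p below 0.05 there were 18 of 48 (37.5%), against 19.2% of all genes. In *Nova1-/-*, 0 of 48 passed, against 0.0126% of all genes, with a median of -0.02. At an unadjusted p below 0.05 there were 2 of 48 (4.17%), against 7.44% of all genes. Below 0 lay 33 of 48 (68.8%), against 49.4% of all genes. Between the wild-type litters 30 of 48 (62.5%) lay below 0, against 49.7% of all genes. In the test of the difference between the knockouts 1 of 48 passed (*Calm2*), against 1.83% of all genes.

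*Camk4*, a nuclear kinase that calmodulin activates and that acts on CREB, was the gene that fell in *Nova2-/-*. It was at 179.6, 173.4 and 180.5 CPM in WT1 to WT3 and at 141.8, 143.4 and 134.4 in *Nova2-/-* (log2 fold change -0.34, SE 0.06, FDR 0.0427). All 3 *Nova2-/-* mice were below all 3 littermates, as for 14.0% of all genes. In *Nova1-/-* it was at 208.0, 173.0 and 163.3, against 175.6, 175.7 and 194.6 in their littermates. Its call in *Nova2-/-* was lost, with FDR from 0.128 to 0.205, when any one of the mice other than WT3 was left out, while its log2 fold change stayed between -0.37 and -0.31. It was also lost without the filter on low counts (FDR 0.0622). The other 7 kinases of its list had 0 calls.

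The calmodulin genes encode one identical protein. *Calm2* was at 1314, 1186 and 1183 CPM in WT1 to WT3 and at 950.9, 943.5 and 844.4 in *Nova2-/-* (log2 fold change -0.42, SE 0.08, FDR 0.0531). It did not pass here, but the difference from its *Nova1-/-* change did (-0.50, SE 0.11, FDR 0.0335). The latter was lost when any of 9 of the 12 mice was left out, with FDR up to 0.108, while its value stayed between -0.53 and -0.43. *Calm3* had a log2 fold change of -0.24 (FDR 0.153), and every *Nova2-/-* mouse was below every littermate, as for 14.0% of all genes. Of the list genes named here, DESeq2 called *Calm2*, *Camk4*, *Nrgn* and *Actn2*, all lower in *Nova2-/-*.

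In the list of calmodulin-binding buffers (4 genes, 0 calls), *Nrgn* had the lowest log2 fold change at -0.90 (FDR 0.106), from 17.19, 18.18 and 28.12 CPM to 10.27, 9.14 and 14.46, and *Pcp4* had -0.27. The highest were *Gap43* at -0.16 and *Pcp4l1* at -0.01. Among calcineurin regulators and anchors (7 tested, 0 calls), the anchor *Akap5* had -0.26 and the cyclophilin *Ppia* -0.25. The inhibitor *Cabin1* had 0.11 and the FK506-binding protein *Fkbp1a* -0.01. Among calcineurin substrates (12 genes, 0 calls), *Nfatc1* had 0.67 and *Nfatc4* 0.56, while *Nfatc2* had -0.37 and *Ppp1r1b*, a phosphatase inhibitor of striatal neurons, -0.36. *Nfatc1* and *Nfatc2* had means of 1.60 and 1.79 CPM in WT1 to WT3, so their values rest on few counts.

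Among inhibitors and phosphatases of CaM kinase II (4 genes, 0 calls), the inhibitors *Camk2n2* and *Camk2n1* had -0.37 and -0.33, and the phosphatases *Ppm1e* and *Ppm1f* had 0.13 and 0.11. Among its partners and substrates (10 tested, 0 calls), the cytoskeletal protein *Actn2* was at 7.80, 11.32 and 7.80 CPM in WT1 to WT3 and at 3.78, 3.94 and 5.01 in *Nova2-/-* (log2 fold change -1.06, SE 0.21, FDR 0.0578). *Grin1* had -0.23, and *Grin2b* and *Syn1*, for an NMDA receptor subunit and a synaptic vesicle protein, had 0.22 and 0.21. *Grin2b* and *Syn1* were also lower in WT1 to WT3 than in WT4 to WT6 (-0.52, FDR 0.0331, and -0.57, FDR 0.0340), as were *Fkbp1a* (-0.39, FDR 0.0340), *Dnm1* (-0.37, FDR 0.0405) and *Synj1* (-0.40, FDR 0.0322). These 5 of 48 were the genes that passed between the wild-type litters, against 3.03% of all genes. Left-out mice other than WT3 brought that count to 0, while the log2 fold changes of these 5 genes stayed between -0.63 and -0.32. Without WT3 it was 15 of 48, in a fit where 22.3% of all genes passed.

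**Figure D5:**
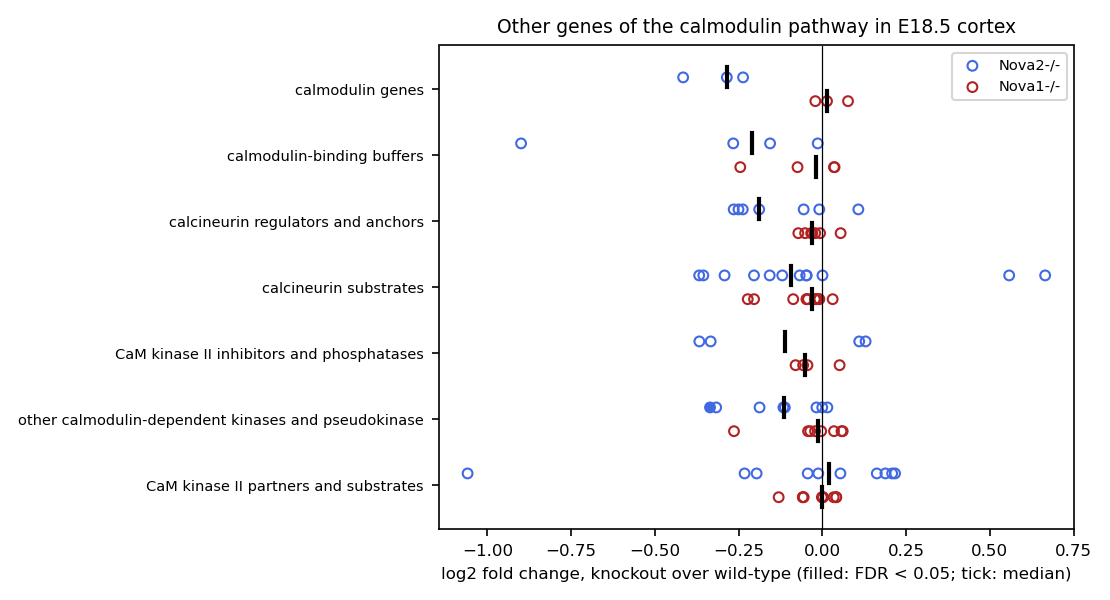
Log2 fold change (x axis) of the 48 tested genes of 7 lists in *Nova2-/-* (blue) and *Nova1-/-* (red) cortex, 1 circle per gene, with the median of each list as a black tick and filled circles for genes with an FDR below 0.05. The one filled circle is *Camk4* in *Nova2-/-*, and the medians of 6 of the 7 lists lie below 0 there.

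Across the 12 mice, the gene whose pattern was nearest to each member was found by the root mean square difference of log2 CPM, each gene centred on its own mean, among 11904 genes with a mean of at least 5 CPM. For *Camk2a* it was *Nav1* (0.118), against 0.389 for the spread of *Camk2a* itself, and for *Camk2d* it was *Murc* (0.0776, against 0.231). The other 6 members varied little, and so were near to many genes. The nearest were *Nell2* for *Ppp3ca* (0.0478), *Prep* for *Ppp3cb* (0.0411), *Pja2* for *Ppp3cc* (0.0359), *Serpine2* for *Ppp3r1* (0.0467), *Cadm3* for *Camk2b* (0.0526) and *Reep3* for *Camk2g* (0.0428). The points are mice of 4 groups that share litters, so the measure carries no test.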

How the data were processed

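Total RNA of E18.5 cortex (3 mice per group) was depleted of ribosomal RNA and sequenced as paired-end reads, which the authors aligned to mm10 with OLego. The authors deposited expected counts per gene symbol, not normalized, with the counting program not given in the sources used here. They also deposited, per splicing event, *Δ*I and its FDR (an adjusted p-value) in mm9 coordinates, 1 value per comparison with replicates combined. The *Δ*I sign was read against the direction that the study gives for its own examples. The members and lists were chosen with earlier results of these data known. Expected counts were rounded and tested with edgeR 4.0.16 (TMM, filterByExpr, quasi-likelihood test, Benjamini-Hochberg FDR over all genes) within the 6 mice of a comparison, or in all 12 for the difference between knockouts. Alternatives were DESeq2 1.42.0, upper-quartile scaling, other filters, left-out mice, a replicate block, and, chosen after seeing the data, thinning to the smallest total and another gene length. In data simulated for the *Nova2-/-* comparison (200 of 15691 genes changed by 2 on the log2 scale), 185 were recovered with 14 false calls. The members' changes there ran from -0.20 to 0.08, and changes that small were not simulated. The simulation thus cannot say whether they would be found. P-values of the abundance tests measure the spread between mice within groups, 3 per group. The deposited event FDR came with replicates combined, so its relation to the spread between mice is unknown. Named genes were the 8 members, list genes past the test or else the 2 highest and 2 lowest in *Nova2-/-* per list, and the nearest gene to each member. Exon positions and motifs came from the NCBIM37 (mm9) genome and GENCODE vM1. Deposited starts were read as counted from 0. Whole-library counts set the precision of CPM, whereas the depth behind *Δ*I is unknown. Some list genes and 1 exon are not reported here.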

Additional observations from a re-analysis of the deposited data

How the results depend on the processing

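Over the alternatives, 0 of the 8 genes passed in *Nova2-/-*, *Nova1-/-* or the difference between them, while the number of calls over all genes in *Nova2-/-* ranged from 7 to 1433. The replicate block, fitted although same-numbered mice correlated at only 0.0898, -0.0153 and 0.145, gave 0 of 8 members in *Nova2-/-*, 220 calls over all genes against 166, and 3 list genes against 1. WT1 (0.121) and WT2 (0.0140) correlated best with another number, and WT3 with its own. These values are too few and too small to settle whether the numbers pair mice. Of 432 alternative fold changes of members, 392 kept direction and side, 38 changed sign and 2 newly passed. Apart from left-out mice, signs changed for *Ppp3cb* in *Nova2-/-* with DESeq2 (-0.00177) and in a fit of 12 mice (-0.00722), *Camk2a* in *Nova1-/-* when thinned (0.00298), and for *Fkbp1a* in *Nova2-/-* with upper-quartile scaling (0.00036). Leaving out 1 mouse gave in *Nova2-/-* a range of -0.183 to 0.402 for *Camk2a*, -0.24 to 0.111 for *Camk2d*, -0.15 to 0.0628 for *Camk2g*, -0.0563 to 0.0529 for *Ppp3cb*, -0.149 to 0.159 for *Pcp4l1*, -0.0372 to 0.0225 for *Fkbp1a*, -0.603 to 0.217 for *Nfatc2*, -0.0148 to 0.184 for *Ppm1f* and -0.362 to 0.0362 for *Grin1*. In *Nova1-/-* it gave -0.0513 to 0.0409 for *Ppp3ca*, -0.0867 to 0.0077 for *Ppp3cb*, -0.0818 to 0.0253 for *Ppp3r1*, -0.289 to 0.111 for *Camk2a* and -0.109 to 0.0662 for *Camk2b*. For the difference it gave -0.14 to 0.431 for *Camk2a*, -0.294 to 0.0439 for *Camk2d*, -0.194 to 0.00817 for *Camk2g* and -0.016 to 0.0926 for *Ppp3cb*. Between wild-type litters it gave -0.0321 to 0.0594 for *Ppp3ca*, -0.124 to 0.0146 for *Ppp3cc*, -0.0498 to 0.0703 for *Camk2b* and -0.0705 to 0.145 for *Camk2g*, and 0 to 2 members past the FDR, the 2 without WT3, where 22.3% of all genes passed. List genes past the FDR in *Nova2-/-* were 2 with no filter, 2 with at least 10 counts in every mouse, 5 with DESeq2, 10 in the fit of 12 mice, 3 when thinned and 0 to 7 with 1 mouse left out (7 without WT3, where 9.03% of all genes passed). For the difference they were 2 with no filter, 2 with DESeq2, 2 when thinned and 0 to 6 with 1 mouse left out (6 without WT3, 6.15% of all genes), and between litters 0 to 15 (15 without WT3). Of the *Camk2g* events past the thresholds in *Nova1-/-* cortex (2), 0 passed at 0.2 for *Δ*I, 1 at an FDR of 0.05, and they formed 1 with overlapping events joined. The *Camk2b* event of midbrain and hindbrain left 0 at 0.2, and the 16 listed events formed 3 joined groups. Per kb of the longest transcript the levels were 57.80 for *Ppp3ca*, 94.11 for *Ppp3cb*, 12.39 for *Ppp3cc*, 48.59 for *Ppp3r1*, 8.303 for *Camk2a*, 88.54 for *Camk2b*, 18.96 for *Camk2d* and 42.42 for *Camk2g*. Except where a smaller set of mice or genes is named, the cause was not tested.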
